A study of Homo sapiens with 6 samples.

Results

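The 10 genes described here encode the enzymes that turn methionine over and build or degrade polyamines. They are MAT2A, MAT2B, AHCY, MTR, MTAP, ODC1, AMD1, SRM, SMS and SAT1, taken as a fixed list by symbol and Ensembl identifier from the 57905 genes of the deposited count table. RNA-SEQ libraries were compared from NALM6 cells, a human line of B-cell precursor acute lymphoblastic leukemia, in 3 of which the cells had received DMSO, the solvent, and in 3 THZ1 at 500 nM, over 24 h in both cases. THZ1 is a covalent inhibitor of CDK7, a kinase of the transcription machinery and of the cell cycle, and the study asked how it alters the metabolism of such cells. All libraries came from 1 cell line, and the labels do not say whether the 3 libraries of a treatment were separate cultures, so the p-values measure only the spread between these libraries.

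In the methionine cycle, MAT2A with its regulatory partner MAT2B makes S-adenosylmethionine (SAM), the methyl donor of the cell. Methyltransferases turn SAM into S-adenosylhomocysteine, AHCY splits this into homocysteine, and the cobalamin-dependent enzyme MTR returns homocysteine to methionine. For polyamines, ODC1 makes putrescine from ornithine, AMD1 decarboxylates SAM, and SRM and SMS use the decarboxylated SAM to make spermidine and then spermine. That step releases methylthioadenosine, which MTAP starts to salvage to methionine, while SAT1 acetylates spermidine and spermine for export or breakdown. Proliferating lymphoid cells need both routes, for methylation and for translation.

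The DMSO-treated libraries summed to between 11015480 and 11164840 counts over all genes, and those treated with THZ1 to between 7876402 and 8314306. Levels are given as CPM, the counts of a gene relative to the scaled size of its library, with scaling by TMM on the assumption that the bulk of genes did not change. That assumption was not met as worded, since 41.1% of the genes tested were called lower with THZ1 and 43.5% higher. All levels and fold changes are therefore relative to the other RNA of a library and do not measure amounts of RNA per cell. A count of 0 allows a level of up to 3 counts, or 0.246 to 0.253 CPM with DMSO and 0.394 to 0.415 CPM with THZ1, by counting error alone. All 8 markers of B-cell precursors that were examined were detected in every library, and their summed level was 2791 to 2836 CPM with DMSO and 1763 to 1827 CPM with THZ1, with 5 of them called lower and 2 higher. Of the T cell, erythroid and epithelial markers, none had more than 5 counts in any library, and KRT18 was at 0 in all 6. The 4 myeloid markers summed to 3.80 to 4.51 CPM with DMSO and 10.7 to 15.1 CPM with THZ1, of which CD14 had 7 to 9 counts and 58 to 71 counts, and their part in the results below was not tested. In RNA from a whole culture, fewer cells that express a gene and less of its RNA per cell cannot be told apart.

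The promoters of 4 members are shown because these genes mark the range of what was measured: SMS fell the most after THZ1, SAT1 was the only one that was higher, MAT2A changed least, and SRM was the only one with an E-box in its most upstream window. Each sequence is the 250 bases before the RefSeq start (RefSeq table on GRCh38.p14), read 5′ to 3′ in the direction of transcription and placed on GRCh37 by its only match. All 10 members matched that table. Capitals mark the E-box CACGTG, the CCAAT box (CCAAT or ATTGG), the GC box (GGGCGG or CCGCCC) and the TATA box (TATAAA or TTTATA), searched on both strands, and no letters belong to 2 of them. The windows lie at chrX:21958577-21958826 on the plus strand for SMS, at chrX:23801040-23801289 on the plus strand for SAT1, at chr2:85766041-85766290 on the plus strand for MAT2A and at chr1:11120076-11120325 on the minus strand for SRM. The SAT1 window overlaps an exon of the gene ENSG00000233785.
SMS: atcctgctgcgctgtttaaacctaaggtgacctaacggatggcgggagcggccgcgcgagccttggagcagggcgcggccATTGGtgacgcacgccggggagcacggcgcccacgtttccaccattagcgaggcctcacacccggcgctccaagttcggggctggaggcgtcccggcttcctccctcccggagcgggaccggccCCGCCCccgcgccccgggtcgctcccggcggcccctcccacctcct
SAT1: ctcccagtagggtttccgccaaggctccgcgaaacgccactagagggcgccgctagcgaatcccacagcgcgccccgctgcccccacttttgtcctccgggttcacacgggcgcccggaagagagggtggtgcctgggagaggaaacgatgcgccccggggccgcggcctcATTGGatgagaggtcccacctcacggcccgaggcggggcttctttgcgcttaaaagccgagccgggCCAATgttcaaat
MAT2A: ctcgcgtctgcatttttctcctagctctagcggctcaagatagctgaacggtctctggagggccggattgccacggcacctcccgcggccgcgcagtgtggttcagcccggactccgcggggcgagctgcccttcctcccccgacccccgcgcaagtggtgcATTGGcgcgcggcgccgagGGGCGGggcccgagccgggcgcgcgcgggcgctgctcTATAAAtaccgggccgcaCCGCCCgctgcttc
SRM: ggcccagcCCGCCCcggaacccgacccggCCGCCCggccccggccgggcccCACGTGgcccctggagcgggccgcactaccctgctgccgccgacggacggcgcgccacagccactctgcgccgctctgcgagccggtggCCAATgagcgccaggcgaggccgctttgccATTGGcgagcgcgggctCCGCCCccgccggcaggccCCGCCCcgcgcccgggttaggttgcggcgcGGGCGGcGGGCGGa

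The E-box of SRM began 199 bases before the start, and its CCAAT boxes began 110 and 80 bases before it. SAT1 had CCAAT boxes at 79 and 13 bases and no GC box, whereas SMS had a CCAAT box at 170 bases and a GC box at 46 bases. MAT2A had a TATA box at 32 bases. Another RefSeq start of ODC1 also had an E-box, 29 bases before it. Over the most upstream window of each of the 10 members, 1 held an E-box, 7 a CCAAT box, 7 a GC box and 2 a TATA box. Of all 35116 promoter windows of this length, 6.34% held an E-box, 32.0% a CCAAT box, 42.6% a GC box and 10.7% a TATA box. These windows include several starts for some genes, so they were not counted in the same way as those of the members. Other starts of MAT2B and AHCY held a GC box, and that of MAT2B also a CCAAT box, whereas their most upstream windows held no motif. These matches describe letters only.

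After THZ1, 8 of the members were lower and SAT1 was higher, and MTAP had no counts. The other 9 were tested, and for each of them the 3 THZ1-treated libraries lay on one side of the 3 DMSO-treated ones. The calls were made by edgeR's quasi-likelihood test at an adjusted p-value below 0.05, over the 16622 genes that passed the filter on low counts. THZ1 moved most of the transcriptome, since 41.1% of all genes tested were called lower and 43.5% higher, and 84.7% did not overlap between treatments. Being called was therefore common, and the members are better described by their sizes: their median log2 fold change was −1.23, against 0.03 for all genes tested. When a log2 fold change beyond 1.5 in either direction was also required, MTR and SMS were lower and SAT1 was higher, where 12.9% of all genes were called lower and 24.6% higher.

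**Figure D1:**
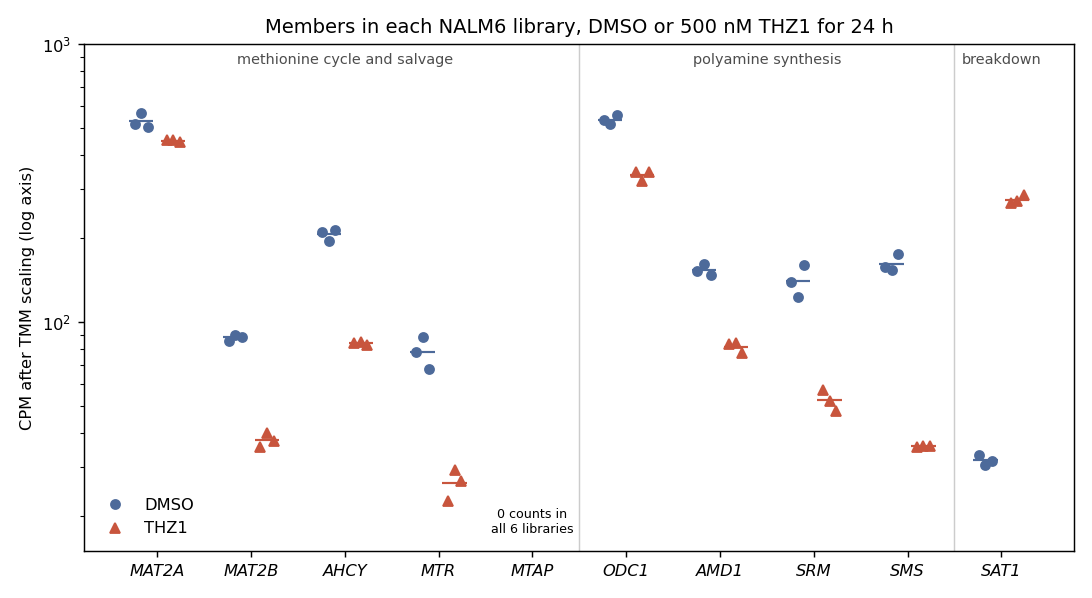
CPM of the members in every library (y axis, log scale), with circles for DMSO, triangles for THZ1 and a line at the mean of 3 libraries. SMS fell from 162 to 35.6 CPM on average and SAT1 rose from 31.8 to 275 CPM, while MAT2A differed least.

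The subunits of the SAM synthetase changed by unequal amounts. MAT2A, the catalytic subunit (ENSG00000168906, chromosome 2 from 85766291 to 85772404, GRCh37), had 516, 563 and 504 CPM with DMSO and 452, 449.6 and 443 CPM with THZ1. The lowest DMSO-treated library thus lay above the highest THZ1-treated one, but by a small margin. The difference was 1.18-fold (log2 fold change −0.24 with a standard error of 0.07, adjusted p = 0.00174, edgeR). This call depended on the scaling, since with upper quartile factors the log2 fold change was −0.04 (adjusted p = 0.558), and it was also lost with at least 10 counts required in every library (−0.10, adjusted p = 0.150). GGCX, on the opposite strand, overlaps MAT2A and had 0.197 to 0.441 counts per MAT2A count with a log2 fold change of 0.67, and the strand setting of the counting is not given in the sources used here.

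MAT2B, the regulatory subunit that tunes MAT2A to its product (ENSG00000038274, chromosome 5 from 162930120 to 162946564), had 85.2, 90.0 and 88.6 CPM with DMSO. With THZ1 it had 35.4, 39.9 and 37.3 CPM, so that every treated library was well under every control library. The fall was 2.34-fold (log2 fold change −1.23, standard error 0.09, adjusted p = 1.65e-14, edgeR). Counts of MAT2A per count of MAT2B, a ratio taken within a library that no scaling factor can change, went from 6.06, 6.26 and 5.69 with DMSO to 12.8, 11.3 and 11.9 with THZ1. The ratio was thus 1.99 times as high with THZ1 and did not overlap between treatments. By the exact permutation test over libraries (two-sided) it had p = 0.1, below which no comparison of 3 with 3 libraries can go, and an adjusted p of 0.117 over the 7 ratios computed.

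AHCY and MTR, which carry the cycle from S-adenosylhomocysteine back to methionine, were both lower after THZ1. AHCY (ENSG00000101444, chromosome 20 from 32868074 to 32899608) had 210.2, 196 and 214 CPM with DMSO and 84.0, 84.6 and 82.8 CPM with THZ1. The treated libraries were almost identical and far under the controls, a 2.47-fold difference (log2 fold change −1.30, standard error 0.07, adjusted p = 5.49e-17, edgeR). MTR, the methionine synthase (ENSG00000116984, chromosome 1 from 236958560 to 237084578), had 78.2, 88.2 and 67.8 CPM with DMSO and 22.7, 29.3 and 26.7 CPM with THZ1. It varied more between replicates than AHCY, but its treatments did not overlap, and it was 2.97-fold lower with THZ1 (log2 fold change −1.57, standard error 0.11, adjusted p = 7.05e-15, edgeR). The MTR:AHCY ratio was 0.372, 0.449 and 0.317 with DMSO and 0.271, 0.347 and 0.323 with THZ1. These values overlapped, and the log2 difference of −0.27 was within the spread of the libraries (exact permutation test, two-sided, p = 0.3). In the FPKM of the second table the difference was −0.65 and the treatments did not overlap. Pseudogenes of AHCY had up to 11 counts in a library, and none of the 18 annotated pseudogenes of the members had more.

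ODC1, which commits ornithine to polyamines and is usually limiting for the pathway, and AMD1, its counterpart on the SAM side, were both lower after THZ1. ODC1 (ENSG00000115758, chromosome 2 from 10580094 to 10588453) had 532, 515 and 556 CPM with DMSO and 346, 320.5 and 346 CPM with THZ1. All treated libraries were lower, by 1.58-fold on average (log2 fold change −0.66, standard error 0.07, adjusted p = 1.21e-10, edgeR). AMD1 (ENSG00000123505, chromosome 6 from 111195973 to 111220082) had 153, 162 and 147 CPM with DMSO and 83.0, 83.9 and 77.3 CPM with THZ1. The treated libraries again lay under every control, by 1.89-fold (log2 fold change −0.92, standard error 0.07, adjusted p = 7.52e-13, edgeR). The ODC1:AMD1 ratio was 3.49, 3.18 and 3.78 with DMSO and 4.17, 3.82 and 4.48 with THZ1, a log2 difference of 0.26. The treatments did not overlap in this ratio (exact permutation test, two-sided, p = 0.1, adjusted p = 0.117), although the gap between the highest control and the lowest treated library was narrow, and in the FPKM of the second table they overlapped and the difference was 0.12. The small RNA gene SNORA80B lies within ODC1 and had 2 to 4 counts with DMSO and 26 to 29 with THZ1, at most 0.0125 counts per ODC1 count.

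The enzymes that add aminopropyl groups fell the most among the 4 genes of polyamine synthesis. SRM, the spermidine synthase whose most upstream promoter window held an E-box (ENSG00000116649, chromosome 1 from 11114641 to 11120077), had 139, 123 and 159.8 CPM with DMSO and 57.1, 51.9 and 48.0 CPM with THZ1. It was lower in every treated library, by 2.69-fold (log2 fold change −1.43, standard error 0.09, adjusted p = 2.15e-15, edgeR). SMS, the spermine synthase (ENSG00000102172, chromosome X from 21958827 to 22012955), had 158, 154 and 175 CPM with DMSO and 35.5, 35.7 and 35.7 CPM with THZ1. The treated libraries were almost identical, and the fall was 4.55-fold (log2 fold change −2.19, standard error 0.08, adjusted p = 3.53e-21, edgeR). Of all genes tested, 5.26% had a lower log2 fold change than SMS and 14.2% a lower one than SRM. The SRM:SMS ratio was 0.883, 0.797 and 0.914 with DMSO and 1.61, 1.45 and 1.34 with THZ1, so that SMS had more counts than SRM in every control and fewer in every treated library (exact permutation test, two-sided, p = 0.1, adjusted p = 0.117).

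SAT1, the acetyltransferase that starts polyamine breakdown (ENSG00000130066, chromosome X from 23801290 to 23804327), moved the other way. It had 33.1, 30.7 and 31.6 CPM with DMSO and 267, 273 and 285 CPM with THZ1. Every treated library lay far above every control, and the increase was 8.66-fold (log2 fold change 3.11, standard error 0.08, adjusted p = 6.60e-26, edgeR). As a rank, 86.4% of the genes tested had a lower log2 fold change than SAT1, so increases of this size were not rare after THZ1. Counts of SAT1 per count of SMS were 0.209, 0.199 and 0.181 with DMSO and 7.53, 7.66 and 7.99 with THZ1. The order of these breakdown and synthesis genes was thus reversed in all 3 treated libraries, with a 39.4-fold change of the ratio (exact permutation test, two-sided, p = 0.1, adjusted p = 0.117).

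**Figure D2:**
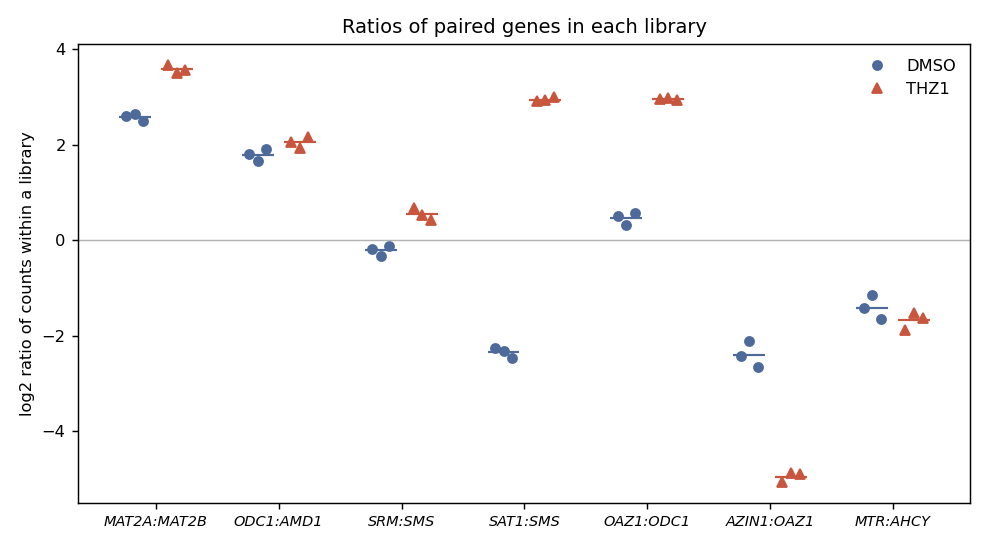
Log2 ratio of the counts of paired genes within each library (y axis), with circles for DMSO, triangles for THZ1 and a line at the mean. SAT1:SMS moved from 0.197 to 7.73 on average, AZIN1:OAZ1 fell, and MTR:AHCY overlapped between treatments in counts, though not in FPKM.

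MTAP (ENSG00000099810, chromosome 9 from 21802635 to 21937650), the phosphorylase that splits methylthioadenosine, lies beside the tumor suppressor CDKN2A. MTAP had 0 counts in all 6 libraries, and its ratio to SRM therefore had no value. The readthrough gene ENSG00000264545, which overlaps it on the same strand, was at 0 too. All 9 neighbours that had been listed for a check, among them CDKN2A, CDKN2B, DMRTA1, KLHL9 and FOCAD, were at 0 in every library. The stretch without counts reached further, over 27 consecutive protein-coding genes from MLLT3 (start 20341667) to TUSC1 (end 25678442), a stretch of 5.34 Mb. In it 76 of 78 annotated genes had no count, and the exceptions were the pseudogene KHSRPP1 with 5 counts and LINC01239 with 1 count over all libraries. On either side, ACER2 had 11 to 67 counts per library and CAAP1 had 88 to 446. Of the 773 protein-coding genes of chromosome 9, 20.2% were at 0, and 1877 runs of adjacent protein-coding genes without counts were found over all chromosomes, of which this was number 5 by number of genes. Counts of RNA cannot tell a missing locus from a silent one.

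**Figure D3:**
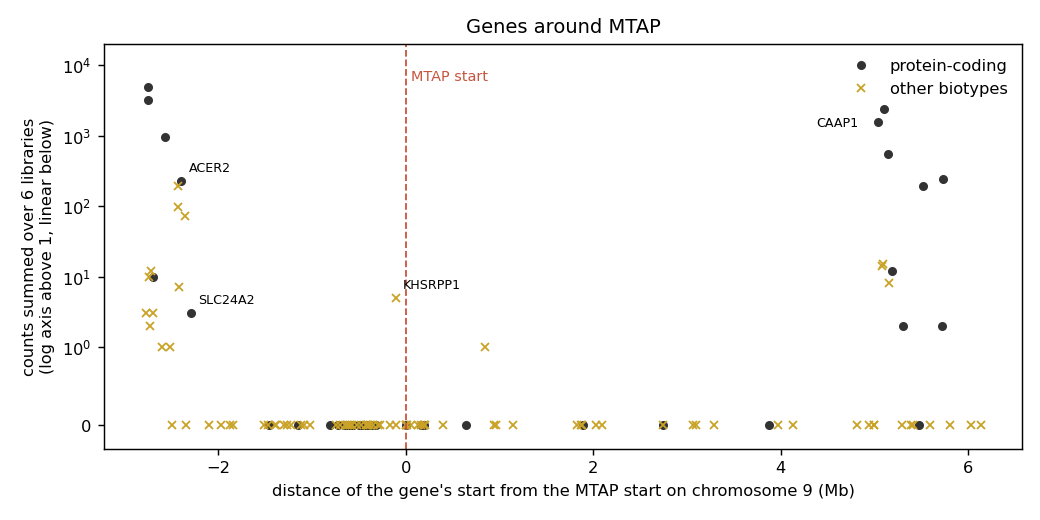
Counts summed over 6 libraries for each gene around MTAP (y axis, log scale above 1), against the distance of the gene's start from the MTAP start in Mb (x axis). Protein-coding genes (filled circles) were at 0 from MLLT3 to TUSC1 and detected on both sides, at ACER2 and CAAP1.

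Levels can be compared between genes only per transcript length, for which the FPKM values of the second deposited table were used, on the log2(FPKM + 1) scale. This table gave 8 of the members, and SRM and MTAP were not analysed in it. With DMSO, ODC1 was the most abundant at a level of 9.12 ± 0.05 (SD, n = 3 libraries), followed by MAT2A at 8.44 ± 0.18, SMS at 7.89 ± 0.03 and AHCY at 7.26 ± 0.03. MAT2B at 5.60 ± 0.06, AMD1 at 5.42 ± 0.09 and SAT1 at 5.18 ± 0.05 were close together, and MTR was last at 4.24 ± 0.15. No neighbours in this order overlapped between their 3 libraries. However, libraries of 1 treatment hold nearly the same sorted values in this table, so the spread between libraries may be understated here. With THZ1, ODC1 stayed first at 8.19 ± 0.05, but SAT1 had moved from the seventh place to the second at 8.06 ± 0.06, ahead of MAT2A at 7.91 ± 0.03. SMS dropped behind AHCY, at 5.56 ± 0.01 against 5.82 ± 0.02, and MTR was again last at 2.36 ± 0.18. Only AMD1 at 4.41 ± 0.06 and MAT2B at 4.29 ± 0.08 overlapped with each other. Expressed as FPKM, the mean level of SMS was 236 with DMSO and 46.1 with THZ1, and that of SAT1 was 35.3 and 266.

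**Figure D4:**
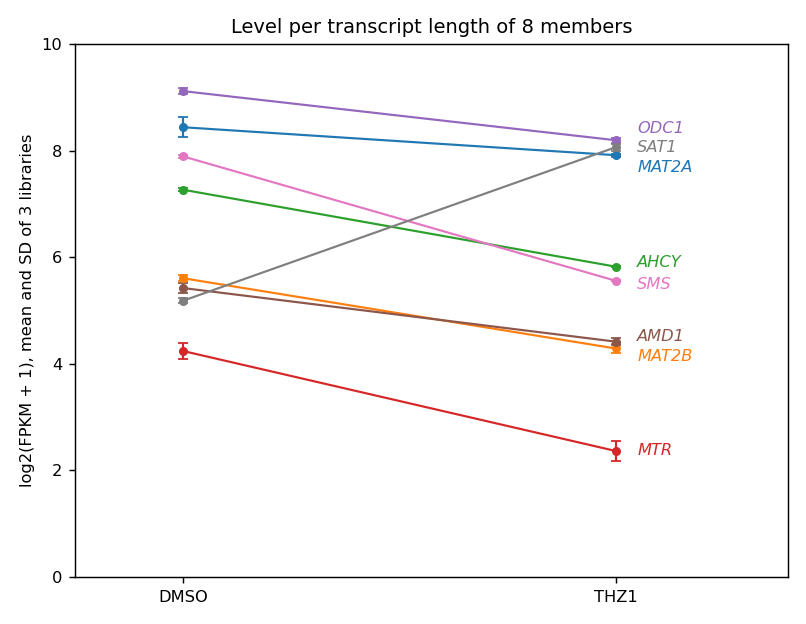
Level of 8 members per transcript length, as log2(FPKM + 1) (y axis), for DMSO and THZ1, with points at the mean and bars at 1 SD of 3 libraries. SAT1 crossed from 5.18 to 8.06, whereas SMS fell from 7.89 to 5.56.

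The genes that act around the members were described from lists written from general knowledge. Of 53 such genes, 44 were tested, of which 23 were lower, 15 higher and 6 not called, with a median log2 fold change of −0.36, where 41.1% of all genes tested were lower and 43.5% higher. In the methionine cycle and transsulfuration list, 4 of 7 tested genes were lower, 2 were higher and 1 was not called (median −0.77). The lowest was AHCYL1, a relative of AHCY without its enzyme activity, which had 106 ± 6.59 CPM in DMSO-treated and 34.4 ± 1.95 CPM in THZ1-treated libraries (SD over n = 3 libraries in each group), or −1.62 on the log2 scale. CBS, which takes homocysteine out of the cycle towards cysteine, fell from 48.5 ± 3.03 to 17.5 ± 3.13 CPM, and MTRR, which reactivates MTR, from 56.9 ± 2.44 to 33.4 ± 1.72 CPM, with FASTKD3 on the opposite strand at 0.405 to 1.06 counts per MTRR count and a log2 fold change of 0.41. The highest was GNMT, a methyltransferase that consumes excess SAM, at only 2.41 ± 0.588 and 4.56 ± 0.768 CPM, and PEX6 overlaps it on the opposite strand with 10.4 to 18.6 counts per GNMT count. In limma on log2(FPKM + 1), GNMT was not called (adjusted p = 0.0825). The liver enzymes MAT1A and BHMT had at most 7 counts in any library.

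Downstream of MTAP, the methionine salvage list held 4 tested genes, of which 2 were lower and 2 were not called (median −1.16). Over all genes tested, 41.1% were lower and 43.5% higher. APIP, the dehydratase of the route, had 29.6, 32.4 and 34.2 CPM with DMSO and 3.29, 4.29 and 4.95 CPM with THZ1. This 7.66-fold fall was the largest of the 44 pathway genes (log2 fold change −2.94, standard error 0.16, adjusted p = 1.92e-17, edgeR). PDHX, which overlaps APIP on the opposite strand, had 0.647 to 1.77 counts per APIP count and a log2 fold change of −1.83. ENOPH1, the next enzyme, fell from 87.6 ± 3.93 to 19.2 ± 1.73 CPM. MRI1, the isomerase before APIP, was at 49.8 ± 3.53 and 52.4 ± 3.74 CPM, and ADI1, the last dioxygenase, at 122 ± 6.74 and 112 ± 2.99 CPM. On the opposite strand, ENSG00000267633 had 0.395 to 0.686 counts per MRI1 count and a log2 fold change of −0.41. For ADI1, ENSG00000235078 had 0.230 to 0.297 counts per count and a log2 fold change of −0.21. Neither MRI1 nor ADI1 passed the test (adjusted p = 0.460 and 0.128, edgeR), but this depended on the setting. ADI1 was called lower with library sizes alone (−0.37, adjusted p = 2.73e-05), with no filter, without DMSO replicate 2 and in limma, and MRI1 was called higher with upper quartile factors (0.26, adjusted p = 0.00784) and with at least 10 counts in every library.

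Regulators of ODC1 protein moved in opposite directions. Antizymes bind ODC1 and send it to the proteasome, and antizyme inhibitors block them. OAZ1, the main antizyme, had 754, 643 and 827 CPM with DMSO and 2676, 2547 and 2654 CPM with THZ1. It was 3.54-fold higher with no overlap (log2 fold change 1.82, standard error 0.08, adjusted p = 7.82e-20, edgeR), although JSRP1, on the opposite strand, had 0.462 to 0.501 counts per OAZ1 count and a log2 fold change of 1.76. OAZ2 rose from 49.0 ± 1.35 to 75.3 ± 7.74 CPM, and OAZ3 fell from 33.7 ± 2.88 to 11.8 ± 0.824 CPM. Whether OAZ3 was counted apart from MRPL9 on the opposite strand is not known, since the strand setting is not given. MRPL9 had at least 1.21 counts per OAZ3 count and a log2 fold change of −2.14. AZIN1, the antizyme inhibitor, fell from 140.4 ± 9.69 to 84.9 ± 4.41 CPM. Within libraries, the OAZ1:ODC1 ratio was 1.42, 1.25 and 1.49 with DMSO and 7.74, 7.95 and 7.67 with THZ1, and the AZIN1:OAZ1 ratio was 0.187, 0.233 and 0.158 with DMSO and 0.0299, 0.0338 and 0.0334 with THZ1. The first was 5.64 times as high with THZ1 and the second 5.89 times as low (exact permutation test, two-sided, p = 0.1 and adjusted p = 0.117 for each).

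Beside SAT1, the 3 other genes of polyamine breakdown were all higher after THZ1, with a median log2 fold change of 1.57, where 43.5% of all genes were higher. SAT2, a relative of SAT1, had 19.2, 14.4 and 20.2 CPM with DMSO and 61.8, 62.6 and 66.0 CPM with THZ1. PAOX, the oxidase that acts on the acetylated polyamines, had 3.06, 2.13 and 2.45 CPM with DMSO and 7.36, 7.75 and 7.62 CPM with THZ1. SMOX, which oxidizes spermine directly, went from 3.27 ± 0.314 to 7.39 ± 0.620 CPM. These last genes were low but did not overlap between treatments, and their log2 fold changes were 1.57 (standard error 0.23) for PAOX and 1.18 (standard error 0.21) for SMOX (adjusted p = 1.67e-07 and 8.51e-06, edgeR).

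Polyamine transport held 1 higher and 2 lower genes of 3 tested (median −0.30), where 43.5% of all genes tested were higher and 41.1% lower. ATP13A2, a lysosomal polyamine exporter, had 73.8, 73.5 and 72.7 CPM with DMSO and 244, 241 and 251 CPM with THZ1. It thus rose 3.35-fold, with little spread within a treatment (log2 fold change 1.74, standard error 0.07, adjusted p = 1.58e-20, edgeR). ENSG00000226526, on the opposite strand, had 0.0976 to 0.127 counts per ATP13A2 count and a log2 fold change of 1.97. SLC18B1, a vesicular polyamine transporter, fell from 23.9 ± 1.64 to 13.9 ± 1.28 CPM, whereas ATP13A3, a transporter of the same family as ATP13A2, overlapped between treatments at −0.30 on the log2 scale and was no longer called with upper quartile factors (−0.11). For ornithine, the substrate of ODC1, ARG2, which makes it from arginine, fell from 25.9 ± 0.704 to 8.15 ± 0.749 CPM, with VTI1B on the opposite strand at 1.52 to 3.70 counts per ARG2 count and a log2 fold change of −0.55. In contrast, OAT, which interconverts it with glutamate semialdehyde, rose from 65.0 ± 2.54 to 95.4 ± 4.17 CPM. ARG1 had at most 2 counts in any library.

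The list of methyltransferases and partners of PRMT5, which did not include GNMT, held 6 tested genes, and these 6 were lower (median −1.39), where 41.1% of all genes were lower. PRMT5, the arginine methyltransferase inhibited by methylthioadenosine, had 186, 162 and 181 CPM with DMSO and 78.9, 65.2 and 67.8 CPM with THZ1. It was lower in every treated library (log2 fold change −1.32, standard error 0.08, adjusted p = 8.12e-16, edgeR). Its partner WDR77 was at 59.2 ± 1.32 and 21.5 ± 1.37 CPM, but whether it was counted apart from ATP5PB on the opposite strand is not known. ATP5PB had 2.46 to 3.71 counts per WDR77 count and a log2 fold change of −1.80. CLNS1A, a substrate adaptor of PRMT5, fell from 111 ± 9.65 to 24.2 ± 0.0859 CPM. AQP11, on the opposite strand, had 0.0296 to 0.344 counts per CLNS1A count and a log2 fold change of 0.77. The lowest was PEMT, which methylates phosphatidylethanolamine, at 22.5 ± 2.55 and 3.41 ± 0.467 CPM, overlapped on the opposite strand by ENSG00000264666 with 0.318 to 0.864 counts per PEMT count and a log2 fold change of −2.00. The least changed was RIOK1, another adaptor of PRMT5, at 57.8 ± 4.34 and 44.9 ± 1.14 CPM, a call that was lost with upper quartile factors (log2 fold change −0.17). PRMT5-AS1 overlaps PRMT5 on the opposite strand with 0.696 to 0.776 counts per PRMT5 count and a log2 fold change of −1.36. METTL16, which binds the MAT2A transcript when SAM is scarce, fell from 65.1 ± 8.10 to 49.8 ± 1.99 CPM, or −0.39 on the log2 scale, and lost its call when scaled with upper quartile factors (−0.19, adjusted p = 0.0530, edgeR). The mitochondrial SAM carrier SLC25A26 was at 62.7 ± 2.75 and 66.9 ± 1.30 CPM and was not called (adjusted p = 0.285, edgeR). In edgeR it was called higher with upper quartile factors (0.29, adjusted p = 0.00176) and with at least 10 counts in every library (0.23, adjusted p = 0.0114). LRIG1 on the opposite strand had 2.12 to 2.71 counts per SLC25A26 count.

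Against TMM, the median log2 fold change of the genes tested was 0.19 higher when upper quartile factors were used and changed by −0.25 when libraries were scaled by size only. Under every other scaling, filter, tool and left-out library run, the 7 lower members other than MAT2A kept their direction and stayed called, though SRM was not run on FPKM. A required log2 size of 1.5 left 2 lower members, where 12.9% of all genes tested were called lower. A size of 1 left 5 lower members, and the share of all genes at that size was not computed. SAT1 stayed called throughout, and its log2 fold change ranged from 2.87 to 3.31. The log2 fold change of SMS ranged from −2.43 to −1.99 over the same settings.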

How the data were processed

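RNA-SEQ of NALM6 cells was analysed, 3 libraries with DMSO and 3 with THZ1, grouped by the labels. According to the methods and the submitters' processing notes, which name cutadapt, STAR, HTSeq, RSEM and GRCh37, the authors filtered reads, mapped them and deposited raw counts per gene made with htseq-count. The annotation and strand setting are not given in the sources used here, so whether genes that overlap on opposite strands were counted apart is not known. A second table deposited by the authors holds log2 values, read as log2(FPKM + 1) of RSEM's FPKM, and taken back to FPKM for other pseudocounts. Libraries of 1 treatment hold nearly the same sorted values in it, so its SDs, its overlaps and the limma p-values may understate the spread between libraries. Its columns of the authors' fold changes and p-values were not used. The design assumed linear FPKM and was kept.

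Genes were filtered with filterByExpr (minimum count 10, minimum total count 15) and tested with edgeR 4.0.16 (TMM, quasi-likelihood, Benjamini-Hochberg over all genes, two-sided, R 4.3.3). Calls needed an adjusted p-value under 0.05, whatever the fold. CPM are after TMM. Ratios of raw counts within a library were compared by the exact permutation test. Symbols and coordinates came from GENCODE 44 on GRCh37. As alternatives, DESeq2 1.42.0, scaling by RLE, upper quartile or library size, other filters, a replicate block, each library left out, limma 3.58.1 on log2(FPKM + 1) or log2(FPKM + 0.1) with a mean FPKM of at least 0.1, at least 1 or no filter, and fold thresholds were used. The fit was also run on simulated data in which few genes changed, unlike here, so that run did not test the scaling.

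The members and lists were chosen with earlier results of these data known. The text names all members, the ratio partners, and of each list the lowest and highest tested gene and at most 3 more by role. Replicates varied beyond sampling noise (chi-square per gene 1.79 to 8.61) and each counted as 1 sample. Some results of the lists are not reported here.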

Additional observations from a re-analysis of the deposited data

How the results depend on the processing

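Of the log2 fold changes of the members under alternatives, 147 kept their direction and their call and 2 lost the call, both of MAT2A, with upper quartile factors (−0.042) and with at least 10 counts in every library (−0.103). The count of lower members was 7 or 8 in every setting that had no fold threshold. Over those settings, 24.9% (no filter) to 48.0% (library sizes alone) of all genes tested were called lower. The count was 2 at a log2 size of 1.5 or more, where 12.9% of all genes were called lower. It was 5 at a size of 1 or more, for which the share of all genes was not computed. The labels do not say whether replicate numbers pair the libraries. Deviations of same-numbered libraries correlated at −0.0040 to 0.0206 and those of other pairs at −0.018 to 0.017. No pairing was thus seen, which does not exclude it. With the replicate block 8 members were lower and 1 higher, and 23 pathway genes lower and 15 higher, as without it. Of all genes tested, 40.8% were lower and 43.2% higher with the block. With FPKM in place of counts, the log2 change was 0.84 for MAT2A:MAT2B, 0.12 for ODC1:AMD1, 2.35 for OAZ1:ODC1, −2.27 for AZIN1:OAZ1 and −0.65 for MTR:AHCY, and the cause was not tested. SRM:SMS was not run on FPKM, and with 3 libraries a treatment no ratio could pass the exact test.

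Of the pathway genes, 4 that were not called with TMM changed sign, and EIF5A was then called lower with library sizes alone (adjusted p = 0.00215) and in each limma setting (adjusted p = 0.0117 to 0.0152). With library sizes alone MRI1 was at −0.18, SLC25A26 at −0.16 and EIF5A at −0.22, and without a filter MRI1 was at −0.015 and EIF5A at −0.063. In limma on log2(FPKM + 1), with any filter, MRI1 was at −0.013, SLC25A26 at −0.0089 and EIF5A at −0.23, and with a pseudocount of 0.1 they were at −0.013, −0.0092 and −0.23. ADI1 was at 0.074 with upper quartile factors and at 0.014 with at least 10 counts in every library. With each library left out, MRI1 ranged from −0.0063 (without DMSO replicate 3) to 0.118 and EIF5A from −0.057 (without DMSO replicate 2) to 0.084. Further calls were lost 15 times and gained 29 times.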

Other observations

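Of 4 tested genes that bring methionine into the cell, 3 were higher after THZ1 and 1 lower, with a median log2 fold change of 0.90, where 43.5% of all genes tested were higher and 41.1% lower. SLC43A2, a facilitator of large neutral amino acids, had 13.6, 12.6 and 13.0 CPM with DMSO and 75.3, 65.6 and 68.4 CPM with THZ1, while its relative SLC43A1 had 48.6, 46.3 and 51.3 CPM and 19.5, 13.8 and 12.6 CPM. The log2 fold changes of this pair were 2.42 (standard error 0.10) and −1.67 (standard error 0.12), with adjusted p-values of 4.62e-20 and 5.55e-14 by edgeR's quasi-likelihood test. SLC3A2, the heavy chain of the main methionine transporter, rose from 219 ± 18.7 to 612 ± 59.0 CPM. Its light chain SLC7A5 was at 497 ± 16.1 and 617 ± 45.6 CPM, a call that was lost with library sizes alone (log2 fold change 0.065) and in limma on log2(FPKM + 1) (0.026). SLC7A5P1, a pseudogene of SLC7A5, had 31 to 37 counts with DMSO and 595 to 667 with THZ1, and whether reads were shared between them was not tested.

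In the supply of cobalamin to MTR, 3 of 5 tested genes were lower, 1 was higher and 1 was not called (median −0.84). Over all genes tested, 41.1% were lower and 43.5% higher. Of the cobalamin genes, TCN2 lost its call with DESeq2 (adjusted p = 0.0526) and without THZ1 replicate 2 (adjusted p = 0.0601, edgeR). PES1 overlaps TCN2 on the opposite strand, with 44.7 to 75 counts per TCN2 count and a log2 fold change of −0.66. LMBRD1, not called in edgeR with TMM, was called lower with library sizes alone, with no filter, in limma, and without DMSO replicate 1 or THZ1 replicate 1. CD320, the receptor for cobalamin bound to transcobalamin, was the lowest, from 53.9 ± 5.16 to 24.5 ± 1.18 CPM. MMACHC, which processes cobalamin on arrival, was the highest, from 21.3 ± 3.17 to 38.9 ± 2.10 CPM, and it overlaps PRDX1 on the opposite strand, which had 12.8 to 70.8 counts per MMACHC count and a log2 fold change of −1.31. Of the hypusine route, which uses spermidine to modify the translation factor EIF5A, DHPS rose from 97.2 ± 11.9 to 203 ± 10.3 CPM and DOHH from 37.3 ± 2.62 to 86.4 ± 2.52 CPM. EIF5A itself was at 691 ± 67.9 and 702 ± 20.7 CPM (adjusted p = 0.762, edgeR), but was called lower with library sizes alone (log2 fold change −0.22, adjusted p = 0.00215) and in limma (−0.23), and higher with upper quartile factors (0.22, adjusted p = 0.00594) and with at least 10 counts in every library (0.16, adjusted p = 0.0473). WDR83 overlaps DHPS on the opposite strand, with 0.822 to 1.99 counts per DHPS count and a log2 fold change of 2.21. GPS2 overlaps EIF5A in the same way, with 0.421 to 0.488 counts per EIF5A count and a log2 fold change of −0.15.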
